A study of Homo sapiens with 5 samples.

Results

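The 4 human HOX clusters encode homeodomain transcription factors, and the probe sets for their genes were followed in IMR32 cells while a short hairpin RNA against MEIS1 was switched on. Members were all probe sets whose annotated symbol, or 1 of several symbols, was a HOXA, HOXB, HOXC or HOXD gene. This gave 47 probe sets for 29 genes, out of 54675 probe sets and 19775 genes named singly on the array. Antisense transcripts were kept apart. IMR32 is an established human neuroblastoma line, and the cells carried a stable, doxycycline-inducible hairpin described as specific for the MEIS1b isoform. Total RNA was hybridised to 1 Affymetrix U133 Plus 2.0 array before doxycycline (0 h) and to 1 array each after 24, 48, 96 and 192 h of doxycycline. All 5 groups therefore shared the line, the integrated hairpin and the medium, and differed in doxycycline and in time in culture. Arrays of cells without doxycycline at later times, or of doxycycline without the hairpin, were not analysed here, so induction, doxycycline and culture time cannot be told apart. Whether the transfected cells were 1 clone or a pool is not given in the sources used here.

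HOX proteins pattern the body axis, and the order of the genes along each cluster follows the order of their expression domains from head to tail. Genes with the same number in different clusters are paralogues, and groups with low numbers act anteriorly. Many HOX proteins bind DNA together with TALE homeodomain proteins of the PBX and MEIS families. In the sympathetic lineage, from which neuroblastoma arises, trunk neural crest cells carry a HOX code of their axial level.

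Values are MAS5 signals, which have no unit. A single factor per array had brought the signals to 1 common mean before deposit. A probe set whose mean over the 5 arrays was below the median of all signals, 17.9, was marked as silent or unreliable and was not tested. Of the sympathoadrenal markers with a probe set named here, 9 of 10 were at or above the median signal. Of these 9, 2 rose and 0 fell, against 1.09% and 0.742% of all tested probe sets, and 5 had a positive and 0 a negative fitted change at an unadjusted p under 0.05, with a list median of 0.62. DDC, an enzyme of catecholamine synthesis, and CHGA, chromogranin A of secretory granules, rose in the trend test described further on (fitted log2 change of 2.13 and 1.04, limma adjusted p of 0.000503 and 0.0144), and the part of this in the HOX values was not tested. TH, tyrosine hydroxylase, was below the median signal on 4 of 5 arrays (2.1, 5.5, 4.2, 9.9 and 28.5 at 0, 24, 48, 96 and 192 h). The summed signal of the sympathoadrenal markers lay between 10026.6 and 13538.6. At or above the median signal were 1 of 4 Schwann cell, 0 of 4 blood, 1 of 5 endothelial and 3 of 6 epithelial markers. Their sums over the arrays ranged from 25.7 to 51.6, 22.7 to 41.6, 38.9 to 78.9 and 79.5 to 107.0. None of the tested Schwann cell, endothelial and epithelial markers passed the trend test. At an unadjusted p under 0.05, 1 of the 3 tested epithelial markers had a negative fitted change, against 6.42% of all tested probe sets. On a bulk array, fewer cells of a type and less RNA per cell cannot be told apart. MEIS1, the target, had 2 probe sets that read 786.6 and 443.8 at 192 h, against 1052.0 and 597.2 at 0 h, and both were highest at 0 h. Neither passed the limma trend (fitted log2 change of -0.33 and -0.35, adjusted p of 0.336 and 0.341).

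The promoters of 4 HOX genes are shown, for the courses described below or for their motifs. HOXD13 and HOXD1 had the lowest fitted changes of the named HOX genes. HOXD4 had a fitted change near 0 and the only MEIS core motif among the 7 genes above the median signal that have a window. HOXA2 was below the median signal, so that no course is read from it, and held both motifs. Each window runs from 250 bases before to 50 bases after the gene's start and is taken from RefSeq on GRCh38.p14. The sequence is given in lower case with motif matches in capitals.
HOXD13, chr2:176092471-176092770, plus strand: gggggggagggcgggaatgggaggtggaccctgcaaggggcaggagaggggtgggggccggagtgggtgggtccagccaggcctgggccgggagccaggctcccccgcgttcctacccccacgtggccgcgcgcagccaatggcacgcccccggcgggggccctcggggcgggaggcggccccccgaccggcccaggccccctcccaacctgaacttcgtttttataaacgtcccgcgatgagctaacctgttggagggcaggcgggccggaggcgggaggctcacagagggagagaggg
HOXD1, chr2:176188418-176188717, plus strand: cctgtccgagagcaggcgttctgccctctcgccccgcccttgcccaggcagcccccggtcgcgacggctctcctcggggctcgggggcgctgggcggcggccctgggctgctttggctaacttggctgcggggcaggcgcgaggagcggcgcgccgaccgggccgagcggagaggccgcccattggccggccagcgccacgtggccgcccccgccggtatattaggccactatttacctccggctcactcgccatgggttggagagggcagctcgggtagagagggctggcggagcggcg
HOXD4, chr2:176151300-176151599, plus strand: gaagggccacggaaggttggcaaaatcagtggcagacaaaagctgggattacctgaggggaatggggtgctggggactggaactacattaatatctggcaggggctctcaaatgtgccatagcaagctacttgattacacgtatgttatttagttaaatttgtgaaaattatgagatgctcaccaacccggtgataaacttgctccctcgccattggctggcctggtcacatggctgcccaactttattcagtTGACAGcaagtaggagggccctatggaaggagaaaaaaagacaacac
HOXA2, chr7:27102634-27102933, minus strand: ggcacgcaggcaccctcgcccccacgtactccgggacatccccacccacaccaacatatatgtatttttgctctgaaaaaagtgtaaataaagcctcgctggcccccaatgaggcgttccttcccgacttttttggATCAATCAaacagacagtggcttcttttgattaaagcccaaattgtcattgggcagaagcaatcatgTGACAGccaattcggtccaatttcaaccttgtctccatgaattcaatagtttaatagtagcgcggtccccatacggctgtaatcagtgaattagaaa

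The MEIS core TGACAG and the HOX-PBX motif TGATTNAT were searched on both strands. Both begin with TGA, but no capitals above belong to more than 1 match. Promoter windows were found for 12 HOX genes, 11 of them distinct because HOXC4 and HOXC5 share 1 annotated start. The MEIS core was found in 2 of the 12, HOXD4 (3 bases after the start) and HOXA2 (47 bases before it). Among all 34796 distinct promoter windows of this length, 15.8% held it. The HOX-PBX motif was found in HOXA2 (114 bases before the start, on the opposite strand, so that the capitals show its reverse complement) and in HOXD11, against 2.82% of all windows. The windows of HOXD13 and HOXD1 held neither string. Nor did those of HOXC4, HOXC5, HOXD8 and HOXD10, with fitted log2 changes between -0.07 and 0.12. GC content was 74.0% for HOXD13, 74.3% for HOXD1, 71.7% for HOXD8, 60.0% for HOXD10, 51.7% for HOXC4 and 47.3% for HOXD4. The median over all windows was 58.7%. A link between the windows and the courses was not tested.

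Of the 47 HOX probe sets, 16 were at or above the median signal (34.0%), against 49.1% of the 54613 probe sets that were not controls. They stood for 11 of the 29 genes by probe sets of 1 gene: HOXB5, HOXC4, HOXC5, HOXC6, HOXC9, HOXD1, HOXD4, HOXD8, HOXD9, HOXD10 and HOXD13. A further 3 of the 16 were annotated to HOXD3, HOXD4 and LOC401021 together and cannot be given to either HOX gene. The HOXD cluster on chromosome 2 had 11 of 18 probe sets at or above the median, covering 6 of its 9 genes singly. The HOXC cluster on chromosome 12 had 4 of 9 probe sets and 4 of 9 genes. The HOXB cluster on chromosome 17 had 1 of 19 probe sets and 1 of 10 genes. From the HOXA cluster on chromosome 7 only HOXA2 was named, and the other 10 of 11 HOXA genes were not analysed here.

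**Figure D1:**
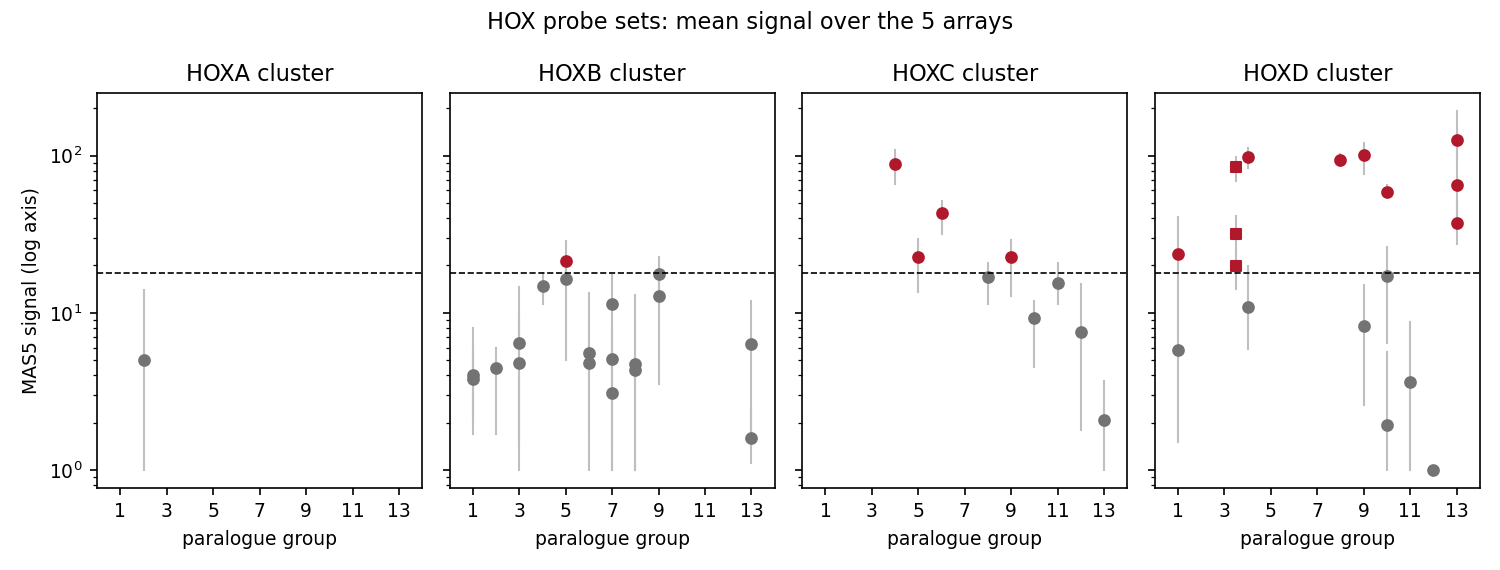
Mean MAS5 signal over the 5 arrays (log axis) of the 47 HOX probe sets, by cluster and paralogue group. Red marks lie at or above the median of all signals, 17.9 (dashed line), grey marks below it, squares are the 3 probe sets shared by HOXD3 and HOXD4, and vertical lines span the lowest and highest array; the HOXD panel holds 11 of the 16 red marks.

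By paralogue group, HOXD1 was above the median and HOXB1 below it, HOXC4 and HOXD4 were above and HOXB4 below, and HOXB5 and HOXC5 were both above. HOXC6 and HOXD8 were above while HOXB6, HOXB8 and HOXC8 were below. HOXC9 and HOXD9 were above with HOXB9 just below, and HOXD10 was above with HOXC10 below. In group 13, HOXD13 was above while HOXB13 and HOXC13 were below. No gene of groups 2, 7, 11 and 12 had a probe set of its own above the median. In group 3, HOXB3 was below it, and HOXD3 had only the 3 probe sets shared with HOXD4, all above it, so its own level is not known here. HOXC9 and HOXC6, on either side of HOXC8 in the cluster, were above, and HOXC10 to HOXC13 were all below. In the HOXD cluster HOXD11 and HOXD12 were below, between HOXD10 and HOXD13, which were above. Brightness depends on the probes as well as on the RNA, so these positions relative to the median are not levels of one gene against another.

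The 31 probe sets below the median ranged from the floor of 1.0 to 26.4 on single arrays, and 23 of them never reached 17.9. HOXD12 read 1.0 on all 5 arrays. HOXC13, an end-of-axis gene known for its role in hair, read 1.7, 1.0, 3.7, 2.3 and 1.7. HOXB13, a prostate and tail bud gene, had probe sets with means of 1.6 and 6.32. HOXA2, which patterns the second pharyngeal arch and hindbrain, had a mean of 5.04 and read 1.0 at 24 and 48 h. HOXB1, HOXB2, HOXB3, HOXB6, HOXB7 and HOXB8, which act in hindbrain and anterior trunk, had means between 3.08 and 11.44. HOXC10, HOXC11, HOXC12 and HOXD11 had means between 3.6 and 15.56. Nothing about a course over time can be read from such dim signals.

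The probe sets nearest to the threshold show how thin the line was. Just below it were HOXB9 (17.7 at 192 h, against 22.5 at 0 h, mean 17.62) and a second HOXD10 probe set (26.4, 18.4, 15.9, 6.4 and 18.6 at 0, 24, 48, 96 and 192 h, mean 17.14). Just above it were a probe set shared by HOXD3 and HOXD4 (18.8, 14.2, 23.0, 25.5 and 17.3, mean 19.76) and HOXB5 (mean 21.34). HOXC8, a thoracic gene, had a mean of 16.94, and HOXB4, an anterior trunk gene, had 14.84. With a line at 2 times the median, 10 probe sets stayed above it, and 11 were at or above the median on every array.

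The change over time was tested with a limma trend over the 5 arrays, on the log2(signal + 4.7) scale, with the time points as equal steps. The slope was multiplied by 4 steps to give a fitted change, which understates the change of dim genes. Of 26805 tested probe sets, 199 fell (0.742%) and 293 rose (1.09%) at a Benjamini-Hochberg adjusted p under 0.05. With array medians set equal, 250 fell and 227 rose, so that 47.6% of calls were rises against 59.6%. Of the 16 tested HOX probe sets, 0 fell and 0 rose. At an unadjusted p under 0.05, 2 had a negative fitted change and 1 a positive one, against 6.42% and 7.18% of all tested probe sets. The 2 were HOXD13 probe sets and the 1 was HOXD9, and the 2 share a gene, so the HOX counts are no clear departure from the background. The median fitted log2 change of the HOX probe sets was -0.04, against 0.02 for all tested probe sets, with 9 negative and 7 positive.

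HOXD13, the gene of the tail end of its cluster and a regulator of limb and urogenital development, had the lowest fitted change, on 207397_s_at. Its probe set 236681_at gave 191.1 at 0 h and 115.4, 134.0, 93.2 and 92.8 at 24, 48, 96 and 192 h. Probe set 207397_s_at gave 117.3 at 0 h and 61.3, 62.7, 38.2 and 45.0 later, and 207398_at gave 53.1 and then 34.9, 37.7, 32.1 and 27.4. On all 3 probe sets the 0 h array was the highest, and every induced array lay below it. On the scale with the offset the 3 stood at 49.8%, 40.7% and 55.5% of their 0 h level at 192 h, and at 61.3%, 54.1% and 68.5% at 24 h. The samples at 96 and 192 h were the lowest pair on 236681_at, 207397_s_at and 207398_at alike.

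The fitted log2 change of HOXD13 was -0.92 ± 0.24 (SE) for 236681_at, with a limma adjusted p of 0.0829. It was -1.29 ± 0.32 for 207397_s_at (adjusted p = 0.0725) and -0.72 ± 0.33 for 207398_at (adjusted p = 0.369). None of the 3 passed the threshold. With array medians set equal, 207397_s_at (-1.37, adjusted p = 0.0276) and 236681_at (-1.01, adjusted p = 0.0406) passed. That setting also lowered the median fitted change of all tested probe sets, from 0.02 to -0.07. Probe set 236681_at also passed with 24 h left out (-1.09, adjusted p = 0.0453). Over all alternatives the adjusted p ranged from 0.0276 to 0.662 for 207397_s_at, from 0.0406 to 0.74 for 236681_at and from 0.266 to 0.931 for 207398_at, and the fitted change stayed negative in each. With 0 h left out the fitted changes were -0.75, -0.56 and -0.44 for 207397_s_at, 236681_at and 207398_at. A 0 h signal above all 4 induced arrays on all 3 probe sets was seen for 64 of the 1611 genes with exactly 3 tested probe sets of their own (3.97%). The 3 HOXD13 probe sets were read from the same 5 RNA samples and are not replicates.

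**Figure D2:**
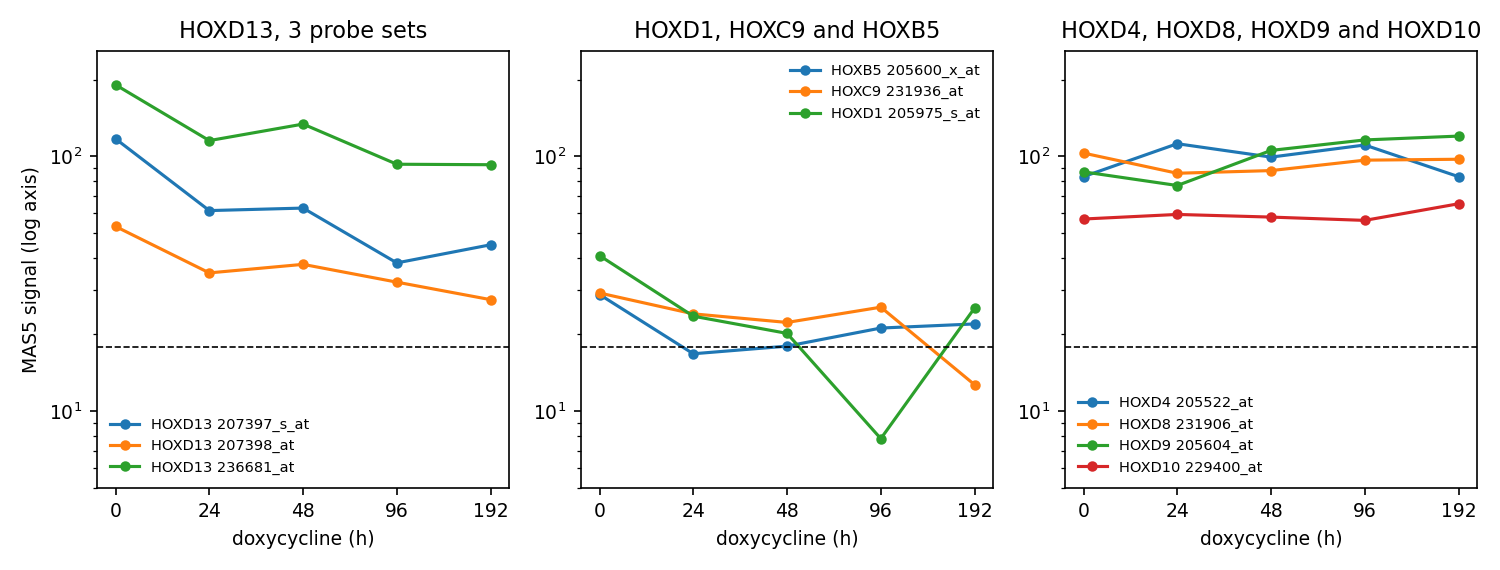
MAS5 signal (log axis) on the single arrays at 0, 24, 48, 96 and 192 h of doxycycline for HOXD13 (left), HOXD1, HOXC9 and HOXB5 (middle) and HOXD4, HOXD8, HOXD9 and HOXD10 (right). The dashed line is the median of all signals, 17.9, and only probe sets with a mean at or above it are drawn. All 3 HOXD13 lines start at their highest point, HOXD1 dips to 7.8 at 96 h, and HOXD10 (229400_at) stays between 56.1 and 65.2.

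HOXD1, at the opposite end of the same cluster and known in mouse from sensory neurons for pain, had a signal of 40.8 at 0 h and 23.6, 20.2, 7.8 and 25.4 at 24, 48, 96 and 192 h in its brighter probe set. All induced arrays lay below the 0 h array, but the course was not steady, with the lowest value at 96 h. The fitted log2 change was -0.95 ± 0.58 (SE; limma adjusted p = 0.526). Single arrays moved it, to -2.31 with 192 h left out, -0.48 with 96 h left out and -0.29 with 0 h left out, and it was -0.13 with the poly-A spike-in level of each array as a covariate. The other HOXD1 probe set read 1.5, 4.9, 9.1, 8.7 and 4.9, all below the median signal, and is too dim for a course to be read from it.

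HOXC9, which in mouse defines thoracic motor neuron columns, had 29.1 at 0 h, 24.1, 22.3 and 25.6 at 24, 48 and 96 h, and 12.7 at 192 h. The 3 earlier induced arrays were within 79.9% to 89.6% of 0 h, and only the 192 h array, at 51.5%, was far below it. The fitted log2 change was -0.74 ± 0.43 (SE; limma adjusted p = 0.504), and -0.23 with 192 h left out. HOXC6, a gene of brachial levels, read 51.2 at 0 h and 46.2, 31.6, 47.9 and 37.3 later (fitted change -0.31 ± 0.34, adjusted p = 0.771). HOXC5 read 25.8, 23.3, 13.6, 29.4 and 21.4, with the 96 h array above 0 h (-0.07 ± 0.47, adjusted p = 0.977).

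HOXC4, the most anterior gene of its cluster, had 109.0 before doxycycline and 66.3, 83.4, 89.9 and 94.2 on the 4 induced arrays in order of time. The induced arrays were all below 0 h, with the lowest value at 24 h and higher values after it, and the fitted log2 change was 0.00 ± 0.28 (SE; limma adjusted p = 0.997). It was -0.38 when the 0 h array was set against the 4 induced arrays and 0.61 with 0 h left out. HOXC4 and HOXC5 share an annotated start, and RNA common to both could add to either signal. HOXC4 was lowest at 24 h, while HOXC5 and HOXC6 were lowest at 48 h. HOXB5, known from vagal neural crest and the enteric nervous system, had 28.7 at 0 h and 16.8, 18.0, 21.2 and 22.0 later, again lowest at 24 h (-0.15 ± 0.44, adjusted p = 0.933). Its other probe set, below the median signal, read 20.0, 20.2, 20.5, 5.0 and 16.6.

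Genes in the centre of the HOXD cluster had fitted changes near 0 or above it. HOXD9, a gene of lumbar and limb levels, had 87.0 before doxycycline and then 76.9, 105.6, 116.1 and 120.2. It was below 0 h at 24 h and above it at the 3 later times, with a fitted log2 change of 0.58 ± 0.22 (SE; unadjusted p = 0.0231 and limma adjusted p = 0.266). Its second probe set was dim, at 2.6 to 15.1. HOXD10, which in mouse specifies lumbar motor neurons, read 56.8, 59.2, 57.8, 56.1 and 65.2, with the highest and lowest arrays closer together than for HOXD8, HOXD4 or HOXD9 (0.12 ± 0.26, adjusted p = 0.904). Its other probe sets had means below the median signal. Of these, 207373_at, near the threshold and described above, was not level, with 26.4 at 0 h and 6.4 at 96 h.

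HOXD8 read 103.1 at 0 h and 85.9, 88.0, 96.7 and 97.5 later (fitted log2 change 0.00 ± 0.22, limma adjusted p = 0.997). HOXD4, a hindbrain and cervical gene, read 83.3, 112.2, 99.4, 110.9 and 83.3, the same at 192 h as at 0 h and higher between (-0.01 ± 0.25, adjusted p = 0.995). The other probe set of HOXD4 alone read 13.8, 7.6, 19.9, 5.9 and 7.5. Its mean of 10.94 was below the median signal, so no course is read from it. The 3 probe sets shared by HOXD3 and HOXD4 had fitted changes of 0.43, 0.41 and 0.19. The brightest of these read 68.6 at 0 h and 85.9, 76.0, 98.2 and 95.1 later, above 0 h on every induced array. So within 1 cluster, genes had fitted changes of either sign, from -1.29 for HOXD13 to 0.58 for HOXD9; the difference between them was not tested.

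**Figure D3:**
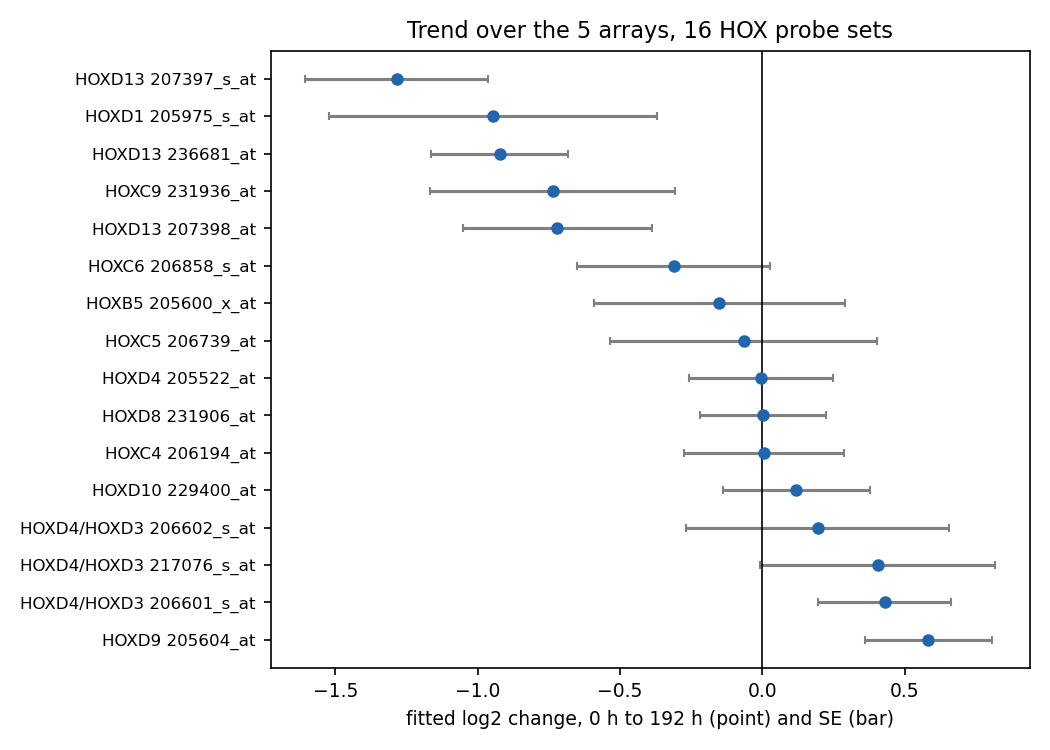
Fitted log2 change over the 5 arrays (points) with its SE (bars) for the 16 tested HOX probe sets, in order of the change. The 3 HOXD13 probe sets lie at -1.29, -0.92 and -0.72, HOXD9 at 0.58, and none passed an adjusted p of 0.05.

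Each induced array was also set against the 0 h array without a test. A 2-fold lower signal was seen for 0 of 16 HOX probe sets at 24 h and at 48 h, against 1.23% and 1.02% of all tested probe sets. At 96 h it was seen for 3 of 16, against 1.39%, and at 192 h for 2 of 16, against 1.76%. At 96 h these were HOXD1 (27.5% of 0 h) and the HOXD13 probe sets 207397_s_at (35.2%) and 236681_at (at the 2-fold limit), and at 192 h 207397_s_at and 236681_at of HOXD13 (40.7% and 49.8%). A 2-fold higher signal was seen for 0 of 16 at each time, against 0.735%, 1.17%, 2.15% and 2.23% at 24, 48, 96 and 192 h. HOXD13 thus supplied 4 of the 5 counts, from probe sets that share a gene. The HOXD1 count rested on a 96 h signal of 7.8, below the median of all signals.

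The 0 h array held the highest signal for 9 of 16 HOX probe sets, against 20.0% of all tested probe sets. It was below all 4 induced arrays for 1 of 16, a probe set shared by HOXD3 and HOXD4, against 20.4%. By gene, with the brightest probe set for each, 0 h was highest for 7 of 11: HOXB5, HOXC4, HOXC6, HOXC9, HOXD1, HOXD8 and HOXD13, against 20.2% of 11944 genes. The number of HOX probe sets below 0 h was 12, 11, 10 and 11 of 16 at 24, 48, 96 and 192 h, against 52.5%, 49.1%, 47.7% and 49.9% of all tested probe sets. In the signal range of the 16, means of 19.76 to 125.3, the shares of tested probe sets were 56.9%, 50.1%, 46.2% and 47.9%. All 4 HOX counts share the 0 h array, so a high HOX reading on that 1 array would enter each of them. With 0 h left out the median fitted change of the HOX probe sets was 0.19, against 0.03 for all tested probe sets. The poly-A spike-ins, added before labelling, differed from 0 h by 0.10, -0.45, -0.61 and -0.25 (mean log2) at 24, 48, 96 and 192 h, and with that level as a covariate the HOX median was -0.14, against 0.01 for all tested probe sets.

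**Figure D4:**
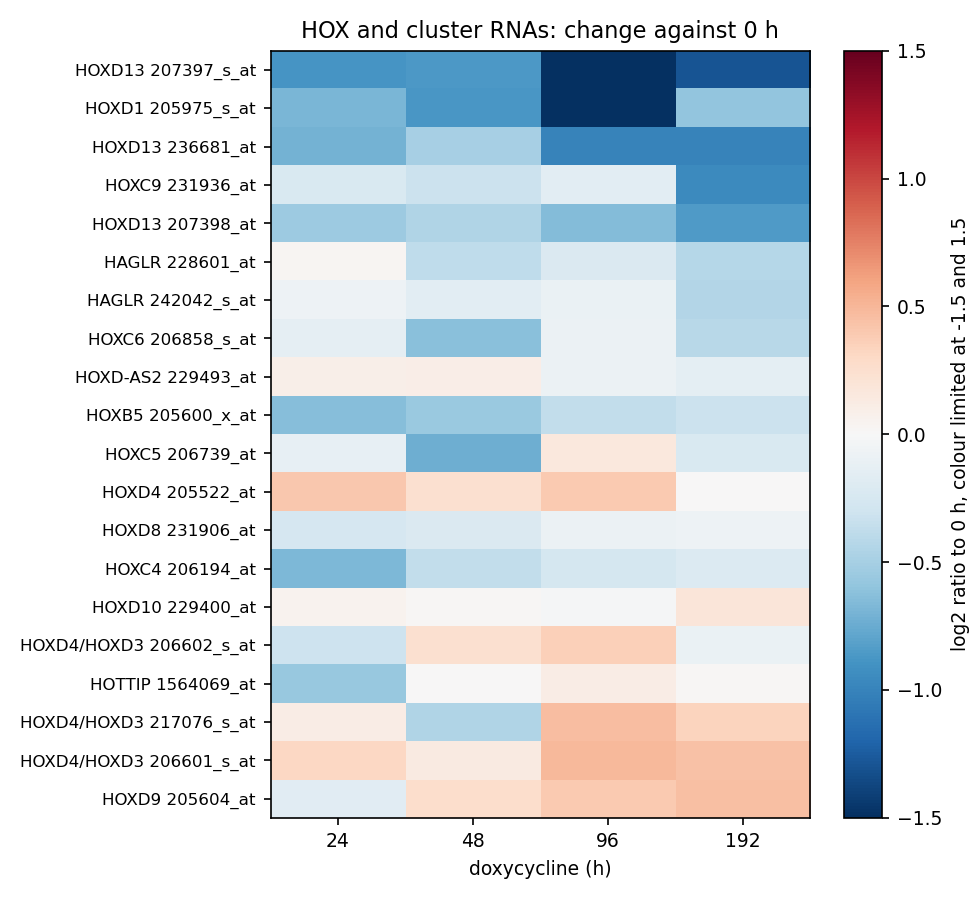
Log2 ratio of each induced array (columns, hours of doxycycline) to the 0 h array for the 16 tested HOX probe sets and the 4 noncoding probe sets above the median signal, in order of the fitted change; colour is limited at -1.5 and 1.5. HOXD13 and HOXD1 are blue in all 4 columns and HOXD9 is red from 48 h.

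Antisense and other noncoding RNAs of the clusters had 24 probe sets, of which 4 were above the median signal and 0 passed the test. HAGLR, a long noncoding RNA antisense to the HOXD cluster, had 122.9 before doxycycline and then 125.1, 93.1, 105.4 and 90.4 (fitted log2 change -0.43 ± 0.22 SE, limma adjusted p = 0.414). A second HAGLR probe set read 28.0, 26.4, 24.6, 25.8 and 19.4 (-0.36 ± 0.38), and both were lowest at 192 h. Another HAGLR probe set was dim, at 1.6 to 8.1, and is not read for a course. HOXD-AS2 read 78.3, 83.6, 84.5, 73.1 and 70.2 (-0.19 ± 0.23). HOTTIP is transcribed beyond the posterior end of the HOXA cluster and is known to keep posterior HOXA genes active. Its brightest probe set read 39.0, 24.7, 39.2, 42.4 and 39.4 (0.28 ± 0.37). The other HOTTIP probe sets, with means of 5.28 and 6.18, were below the median signal on every array, so the probe sets differ on whether HOTTIP was above it. HOTAIR, the HOXC antisense RNA that binds Polycomb complexes, read 1.0 on every array. The 3 antisense probe sets that carry a HOXA gene's name, for HOXA11-AS and HOXA10-AS, were all below the median.

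Genes that act with or on HOX genes, and genes that flank the clusters, were counted in 6 lists, each by its brightest probe set. Of 74 tested genes 0 rose and 0 fell in the limma trend, against 1.09% and 0.742% of all tested probe sets. At an unadjusted p under 0.05, 2 had a positive and 7 a negative fitted change, against 7.18% and 6.42% of all tested probe sets. MEIS1, the target of the hairpin and a TALE cofactor, is counted among the 74 and the 7 (fitted log2 change -0.33). Of 8 TALE cofactors, the largest fitted log2 changes were those of PKNOX2 (-0.63) and PBX2 (0.55), and the list's median was 0.05. Of 23 Polycomb genes, which keep HOX clusters silent, PCGF2 had 0.66 (limma adjusted p = 0.0967) and CBX6 0.64, and the median was 0.00. Of 15 trithorax genes and demethylases, which keep them active, KMT2C had 0.38 and KDM6B 0.30 (median 0.04). Of 14 tested upstream inputs, CYP26B1 and ALDH1A3, which break down and make retinoic acid, had -0.41 each (median -0.05), and CDX1, CDX2 and CDX4 were below the median signal.

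Of 6 co-repressors and modifiers, GMNN, the replication inhibitor geminin that also binds HOX proteins, had a fitted log2 change of -0.47 (limma adjusted p = 0.18) and HDAC1 -0.32. Of 8 tested genes that flank the clusters, SMUG1, near the HOXC cluster, had 0.64 and LNPK, near HOXD13, had -0.37 (adjusted p of 0.414 and 0.438). LNPK read 252.8 at 0 h and 187.1, 181.4, 179.7 and 185.8 later, below 0 h on every induced array and level among them. A 0 h signal above all 4 induced arrays was also seen for other flanking genes, though not for all. It was seen for 20.0% of all tested probe sets. MTX2, near HOXD1, read 555.0 at 192 h, against 626.1 at 0 h (-0.19). With 0 h left out, 2 list members passed in limma, the Polycomb genes CBX6 (fitted change 1.56, adjusted p = 0.0407) and JARID2 (1.22, adjusted p = 0.0437), both lowest at 24 h. In that fit 93 of all 26805 tested probe sets rose and 44 fell. The median fitted change of the 8 flanking genes was -0.05, against 0.02 for all tested probe sets.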

How the data were processed

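Values are the authors' deposited log2 MAS5 signals of 5 arrays; MAS5 and GCOS, with no version, are given per the submitters' processing notes. That they are log2, floored at 1 and scaled to a trimmed mean of 100.02 to 100.03 (2% off either tail) was inferred from the numbers. To the linear signal, 4.7, the median of the arrays' 25th percentiles, was added before log2. Controls (62) and probe sets with a mean below 17.9 were left out. A trend over time steps 0 to 4 was fitted to 26805 probe sets with limma 3.58.1 in R 4.3.3 (eBayes, trend=TRUE; residual df 3, prior df 9.01), tested two-sided, with Benjamini-Hochberg adjustment across all of them, and tested on simulated data. With 1 array a time point, p-values reflect scatter around a line only. Names come from GEO's platform annotation (41037 of 41091 probe sets of 1 gene matched RefSeq GRCh38.p14). Members and lists were chosen with earlier results of these data known. HOX genes with a probe set of their own at or above 17.9 are named with values, others by range. Of each list, called genes and the 2 largest changes are named; MTX2, JARID2, TH and the CDX genes were added after their values were seen.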

Additional observations from a re-analysis of the deposited data

How the results depend on the processing

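No HOX probe set passed the trend threshold with the offset 4 times smaller or larger, quantile normalization, no filter on dim probe sets, time in hours, the 0 h array set against the 4 induced arrays, the poly-A spike-in covariate, or the brightest probe set per gene. Setting array medians equal gave 2, both of HOXD13, and leaving out each array in turn gave 0 to 1. The 492 calls over all probe sets became 0 without the filter (2719 positive and 2264 negative at an unadjusted p under 0.05 in limma), 0 with the 0 h array set against the induced arrays (847 and 572), 235 with the spike-in covariate and 137 to 521 without 1 array (137 with 0 h left out, 184 with 192 h left out). List members past the threshold numbered 0 to 2 without 1 array, with 2 without the 0 h array. Counts of HOX probe sets past 2-fold, 5 in all, became 3 with the larger offset and 27 without the filter, where dim probe sets enter. At 2 times the median signal 10 of the 16 HOX probe sets remained. The cause of the other moves was not tested. No paired analysis was possible because each time point has 1 array. HOXC4, HOXD8, HOXD4, HOXC5, HOXB5, HOXD10 and 1 shared HOXD3 and HOXD4 probe set, none of them called, took the opposite sign in at least 1 alternative. Signals near the floor limit what can be said of the 31 dim probe sets.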
